A study of Mus musculus with 141 samples.

Results

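The Hox genes are the genes of the Hoxa, Hoxb, Hoxc and Hoxd clusters, taken here as every gene named Hoxa, Hoxb, Hoxc or Hoxd followed by its number. The rule found 39 of the 24423 genes in each file, of which 11 were Hoxa, 10 Hoxb, 9 Hoxc and 9 Hoxd. They were measured by RNA-seq in the liver, the lung and the kidney of mice from 47 Collaborative Cross strains, inbred lines bred from a common set of founders. Each strain gave 1 adult male of 8 to 12 weeks and 1 library per tissue, so strain and mouse cannot be told apart. All mice had breathed clear air in mesh chambers 6 hours a day on weekdays for 2 weeks, and were anaesthetised with nembutal at 100 mg/kg before the organs were frozen. The question was which cluster and which numbers of the series each adult tissue expressed, and how far the strains differed.

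Hox genes encode homeodomain transcription factors that give cells of the embryo their position along the body from head to tail. In each cluster the genes lie in a row, and genes with low numbers are used early and towards the head while genes with high numbers are used late and towards the tail, a relation called collinearity. Genes of the same number in different clusters descend from 1 ancestral gene and form a paralog group. Many adult mesenchymal cells keep the Hox pattern of the level of the body at which they formed, which is called positional memory. On the mouse assembly NCBIM37, the Hoxa genes spanned chr6:52105366-52210874 on the minus strand, the Hoxb genes chr11:96055630-96229570, the Hoxc genes chr15:102751534-102867274 and the Hoxd genes chr2:74506367-74603200, all on the plus strand. In that annotation 12 members shared an exon with another gene of the same strand, such as Hoxb7 with Hoxb8, Hoxd3 with Hoxd4 and Hoxa2 with Hoxa3. In addition, 8 members shared an exon with a gene of the opposite strand, such as Hoxb5 with 0610040B09Rik. Values of overlapping genes are uncertain where reads could belong to either, since the strand setting of the counting is not given in the sources used here.

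Hoxa5 and Hoxd4 show the contrast between lung and kidney that runs through the data: Hoxa5 was the most abundant Hox gene of the lung, and Hoxd4 was abundant in kidney and near 0 in lung. The 250 bases before their starts are printed 5′ to 3′ on the strand of the gene, with each CG pair in capitals. The letters are RefSeq's, and were located on NCBIM37 by an exact match. The stretch of Hoxd4 lies within the span of Hoxd3, and that of Hoxa5 within the span of Hoxa3. Neither stretch overlaps an annotated exon.
Hoxa5, chr6:52154587-52154836, minus strand: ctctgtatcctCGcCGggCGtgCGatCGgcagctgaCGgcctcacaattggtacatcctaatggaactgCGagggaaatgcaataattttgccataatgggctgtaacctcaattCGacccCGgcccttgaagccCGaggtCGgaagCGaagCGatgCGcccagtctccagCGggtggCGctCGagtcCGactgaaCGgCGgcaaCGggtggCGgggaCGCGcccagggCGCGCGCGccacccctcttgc
Hoxd4, chr2:74559785-74560034, plus strand: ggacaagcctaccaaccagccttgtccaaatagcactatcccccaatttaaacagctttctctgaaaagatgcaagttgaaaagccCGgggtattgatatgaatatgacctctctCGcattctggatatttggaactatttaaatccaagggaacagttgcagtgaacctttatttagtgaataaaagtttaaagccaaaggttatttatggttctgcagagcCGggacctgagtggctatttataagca
The Hoxa5 stretch held 28 CG pairs and none of the 4 motifs searched. The Hoxd4 stretch held 3 CG pairs, with matches to TATAAA and TTTATNG. RefSeq's promoter table matched 22 members with 24 promoters, whose median was 12.5 CG pairs against 6 over all 32851 promoters. On both strands, TATAAA was in 16.7% of the members' promoters and 12.4% of all, TGATTNAT in 8.33% and 2.82%, TTTATNG in 8.33% and 9.81%, and CCGCCC in 41.7% and 32.7%. TATAAA and TTTATNG can overlap each other, and a match is only a description of the letters.

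The clusters also carry miRNA genes, which are shown because the number of libraries with reads at these genes differed between lung and kidney. Mir10a shares an exon of Hoxb4 and Mir196b one of Hoxa9. The mature sequences, from RefSeq, have the seed (bases 2 to 8) in capitals.
mmu-miR-10a-5p: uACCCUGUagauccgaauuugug
mmu-miR-10b-5p: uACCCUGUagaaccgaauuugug
mmu-miR-196a-5p: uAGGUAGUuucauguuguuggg
mmu-miR-196b-5p: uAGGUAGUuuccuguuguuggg
The first pair share 1 seed and the second pair another. A TruSeq total RNA library is not made for RNAs this short, so reads at these genes need not come from the mature miRNA.

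Library totals ran from 1738046 to 42158454 expected counts in liver, 2829104 to 17585682 in lung and 3046695 to 15028553 in kidney, and 11 libraries had under 4000000. Markers matched the labels: the summed level of 6 hepatocyte genes was 31070 to 131300 TPM (a level per transcript length, relative to the library) in liver, that of 6 alveolar and airway genes was 19420 to 165900 TPM in lung, and that of 6 proximal tubule genes was 30120 to 164900 TPM in kidney. Outside its own tissue each list was lower. Hepatocyte genes reached at most 1800 TPM (lung of CC010) and alveolar and airway genes 391.8 TPM (kidney of CC004). Proximal tubule genes reached 1656 TPM in the liver of CC035, against a liver median of 62.6 TPM. That liver was not set apart, and was the highest liver for Hoxc10, Hoxd9 and Hoxd10, at 0.38, 0.85 and 0.39 TPM. The part of kidney genes in these levels was not tested. By other lists, 23 libraries stood apart. In 21 lungs the summed level of 10 genes of stratified squamous epithelium, such as that of oesophagus or skin, was 177.9 to 4904 TPM, against 1.11 to 44.8 TPM in the other 26. The basal marker Trp63 was listed at 0 in all libraries. The liver of CC041 had 1376 TPM of these genes, against at most 12.2 TPM in the other livers outside the 23, and the liver of CC006 had 2583 TPM of 12 adrenal gland genes, against at most 44.4 TPM. Both lists and the limit of 100 TPM were chosen after seeing the data, and results that rest on these libraries are given with and without them. Lists of adipose and skeletal muscle genes, also chosen after seeing the data, were not used to set libraries apart. Adipose genes summed to 100 TPM or more in 16 kidneys, 4 lungs and the liver of CC006. Skeletal muscle genes did so in 22 lungs and 4 livers. Their part in the Hox levels was not tested.

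The 3 tissues ranked in the order liver, lung, kidney in the number and the total level of Hox genes. A member was counted as expressed where its level was above 1 TPM in more than 50% of the libraries of a tissue. No member met this in liver, 12 did in lung and 27 in kidney. Over all genes in the files, 37% were expressed by the same limit in liver, 51.0% in lung and 44.2% in kidney. The summed level of all 39 was 1.05 to 38.4 TPM in liver (median 3.78), 42.6 to 225.5 TPM in lung (median 106.8) and 128.7 to 363.5 TPM in kidney (median 231.3). The highest livers were CC006 (38.4 TPM) and CC041 (11.1 TPM), both among the libraries that stood apart, and the next was CC003 at 6.29 TPM. The liver range did not reach the lowest lung, and the highest lungs passed the lowest kidneys. In whole organs, fewer cells of a type that expresses a gene and less RNA per cell cannot be told apart. The summed levels of fibroblast, smooth muscle and endothelial markers were also lowest in liver, with medians of 40.1, 16.9 and 52.9 TPM against 710.9, 685.5 and 862.2 TPM in lung and 57.3, 77.1 and 78.4 TPM in kidney. These lists were highest in lung. Other lists rose in the order of the Hox sums, such as collecting duct genes, with medians of 0.88 TPM in liver, 158.5 in lung and 303.3 in kidney. The part of cell types in the Hox sums was not tested.

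**Figure D1:**
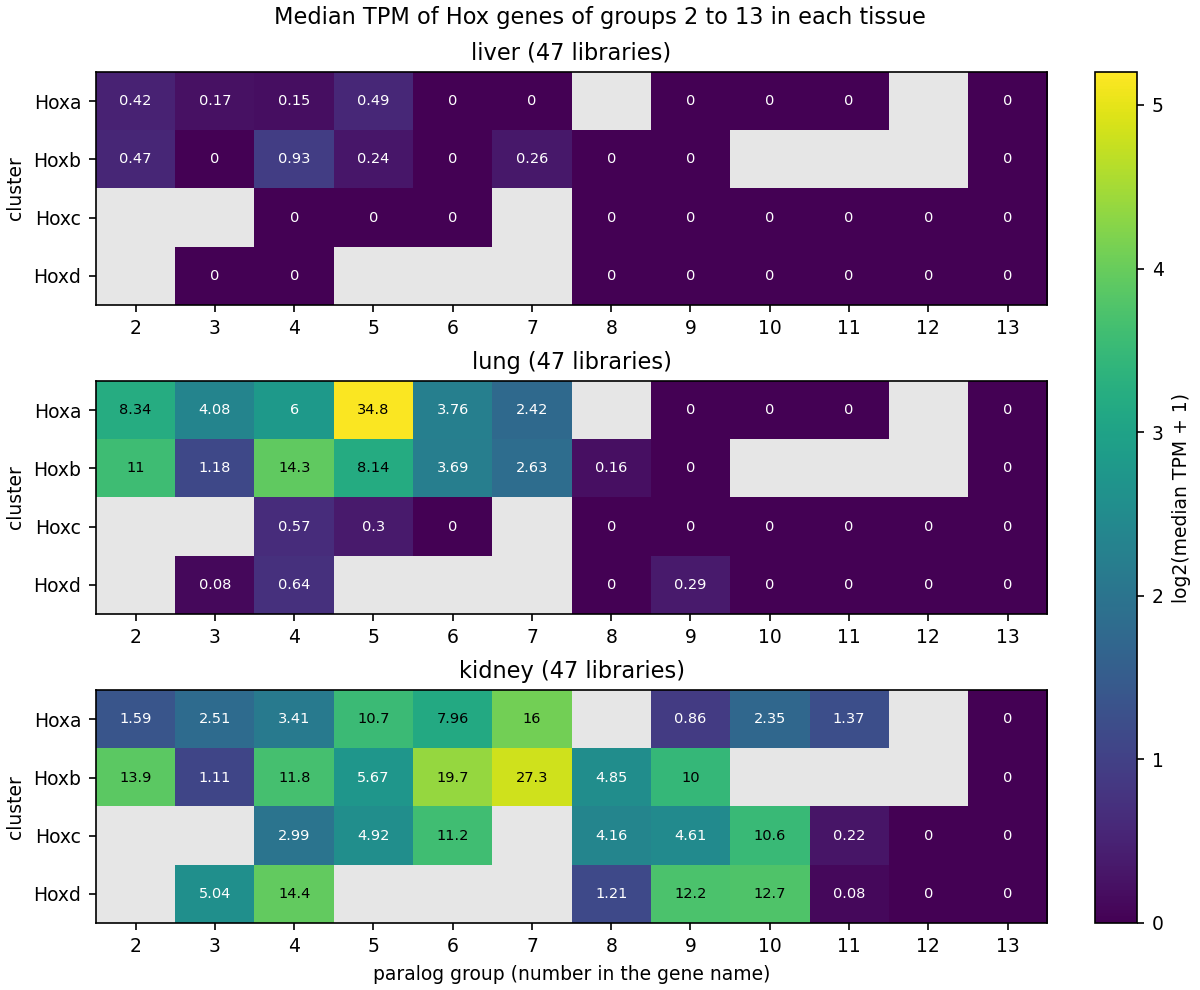
Median level of the Hox genes of groups 2 to 13 in liver, lung and kidney (47 libraries each), with clusters in rows and paralog groups in columns. Colour is log2(median TPM + 1), the printed numbers are median TPM, and light grey marks a number that the cluster lacks. Lung is filled from group 2 to group 7 of Hoxa and Hoxb, kidney from group 2 to group 11 over all 4 clusters, and no liver median reaches 1 TPM.

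The lung expressed 1 block of genes, Hoxa2 to Hoxa7 and Hoxb2 to Hoxb7, and no Hoxc or Hoxd gene. Kidney expressed those 12 and 15 more, which made 8 Hoxa, 8 Hoxb, 6 Hoxc and 5 Hoxd genes. No member was expressed in lung and not in kidney. By summed level, Hoxa led in lung (median 60.5 TPM) ahead of Hoxb (41.6 TPM), with Hoxc at 1.31 TPM and Hoxd at 1.12 TPM. In kidney, Hoxb led (94.6 TPM), and Hoxa (46.8 TPM), Hoxd (46.6 TPM) and Hoxc (38.6 TPM) followed. The range of Hoxa levels in kidney, 21.3 to 70.1 TPM, lay inside that of lung, 21.8 to 104.8 TPM, apart from its lowest end, whereas for Hoxc and Hoxd each kidney was above every lung. Leaving out the 23 libraries that stood apart left 12 expressed members in lung and 0 in liver.

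Weighting each member's number by its level gave a mean paralog number that separated the organs. It was 3.781 to 4.646 in lung (median 4.327) and 6.121 to 6.591 in kidney (median 6.376), so that the lowest kidney lay above the highest lung. Groups 1 to 5 made up 78.5% to 94.0% of the summed level in lung and 26.6% to 40.3% in kidney. Groups 9 to 13 made up at most 3.05% in lung and at least 21.7% in kidney. The liver median was 4.213, near that of lung, but its libraries ran from 3.07 to 6.754 on few reads.

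In Hoxa and Hoxb, 6 of the 8 genes of groups 2 to 5 differed by less than 2-fold between lung and kidney, and the other two, Hoxa2 and Hoxa5, were higher in lung. Hoxa5, without which mice form defective airways and lungs, was at 12.3 TPM in the lowest lung, 34.8 at the median and 68.8 in the highest. In kidney it ran from 3.96 to 20.3 TPM with a median of 10.7, and in liver from 0 to 1.64 TPM with a median of 0.49. Lung was high, kidney lower and liver near 0, and the lowest lungs fell inside the kidney range, although lung was above kidney in 46 of 47 mice by TPM and in all 47 by TMM-scaled CPM, the scale of the fit. The limma-voom difference, fitted to counts with a term for the strain, was 1.14 ± 0.08 (SE) on the log2 scale for lung against kidney (q = 3.3e-25, the Benjamini-Hochberg adjusted p over 12127 genes) and fell by 4.49 ± 0.09 for liver against lung (q = 6.4e-70).

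Hoxa2, which patterns the hindbrain and the skeleton of the branchial arches, was the other gene higher in lung. Its levels were 1.57 to 20.0 TPM in lung (median 8.34), 0.42 to 3.73 TPM in kidney (median 1.59) and 0 to 1.65 TPM in liver (median 0.42). Most lungs lay above every kidney, and by TPM all 47 mice had more in lung (46 by scaled CPM). The difference was 1.84 ± 0.15 on the log2 scale, or 3.58-fold (q = 5.8e-22). Hoxa2 was also the single tested member not called between liver and kidney, at -0.96 ± 0.15, just under the 2-fold limit, and it passed the limit at -1.001 without the libraries that stood apart.

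Hoxa3 and Hoxa4, which act in the neck region of the embryo, differed by less than 2-fold between the organs. Hoxa3 had medians of 4.08 TPM in lung (1.2 to 11.5) and 2.51 TPM in kidney (0.85 to 6.51), with a difference of 0.27 ± 0.18 (q = 0.14). Hoxa4 had medians of 6.00 TPM (0.92 to 11.3) and 3.41 TPM (0.55 to 6.26), and a difference of 0.43 ± 0.14 (q = 0.0023). Lung was higher for Hoxa4 in 34 of 47 mice by scaled CPM and in 42 by TPM, and for Hoxa3 in 25 and 35. The lung and kidney ranges of both genes overlapped over most of their length. In liver neither passed 0.74 TPM.

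In Hoxb, the genes of groups 2 to 5 did not reach 2-fold between lung and kidney. Hoxb4, known for its part in blood stem cells, was at 5.09 to 27.8 TPM in lung (median 14.4), 5.29 to 23.2 TPM in kidney (median 11.8) and 0.14 to 1.90 TPM in liver (median 0.93). Lung and kidney covered the same range, and liver lay below both. The lung against kidney value was -0.33 ± 0.07 (q = 1.9e-05) with the scaling used for the test, whereas total counts or TPM gave a value of the opposite sign. These scalings also moved the median of all genes, from 0.04 to 0.464 with total counts, so that small differences in TPM and in the fit need not have the same sign.

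Hoxb2, a hindbrain gene like Hoxa2, had medians of 11.02 TPM in lung (3.09 to 24.8) and 13.9 TPM in kidney (7.19 to 27.2). Its difference, -0.90 ± 0.09 (q = 1.8e-16), was the nearest of this group to the limit, with kidney higher in 46 of 47 mice by scaled CPM but in 34 by TPM. Hoxb3 was at about 1 TPM in both, with medians of 1.18 TPM (0 to 2.49) and 1.11 TPM (0 to 3.64) and a difference of -0.58 ± 0.15 (q = 0.00028). Hoxb5, which takes part in airway branching, had medians of 8.14 TPM (1.81 to 38.2) and 5.67 TPM (2.12 to 13.1) and a difference of -0.02 ± 0.13 (q = 0.88), whose sign turned under 7 of 13 alternatives.

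From group 6 on, every tested gene was higher in kidney. Hoxa6 stood at 0 to 10.1 TPM in lung (median 3.76) and 1.71 to 21.7 TPM in kidney (median 7.96), a difference of -1.70 ± 0.15. Hoxa7 stood at 0.35 to 7.08 TPM in lung (median 2.42) and 7.30 to 32.7 TPM in kidney (median 16.0), a difference of -3.30 ± 0.14. The Hoxa6 ranges overlapped, and every kidney was above every lung for Hoxa7. In liver Hoxa6 had reads in 1 library and Hoxa7 in 10.

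Hoxb6 and Hoxb7 were the most abundant Hox genes of the kidney. Hoxb7, whose promoter is widely used to mark the ureteric bud and the collecting ducts formed from it, was at 10.01 to 50.3 TPM in kidney (median 27.3), 0 to 6.70 TPM in lung (median 2.63) and 0 to 2.92 TPM in liver (median 0.26). Hoxb6 was at 6.74 to 35.0 TPM (median 19.7), 1.05 to 19.3 TPM (median 3.69) and 0 to 4.48 TPM (median 0). Every kidney was above every lung for Hoxb7, and for Hoxb6 most lungs lay below the lowest kidney. Lung against kidney gave -3.92 ± 0.10 (q = 1.0e-58) for Hoxb7 and -2.94 ± 0.13 (q = 2.3e-39) for Hoxb6, in all 47 mice.

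**Figure D2:**
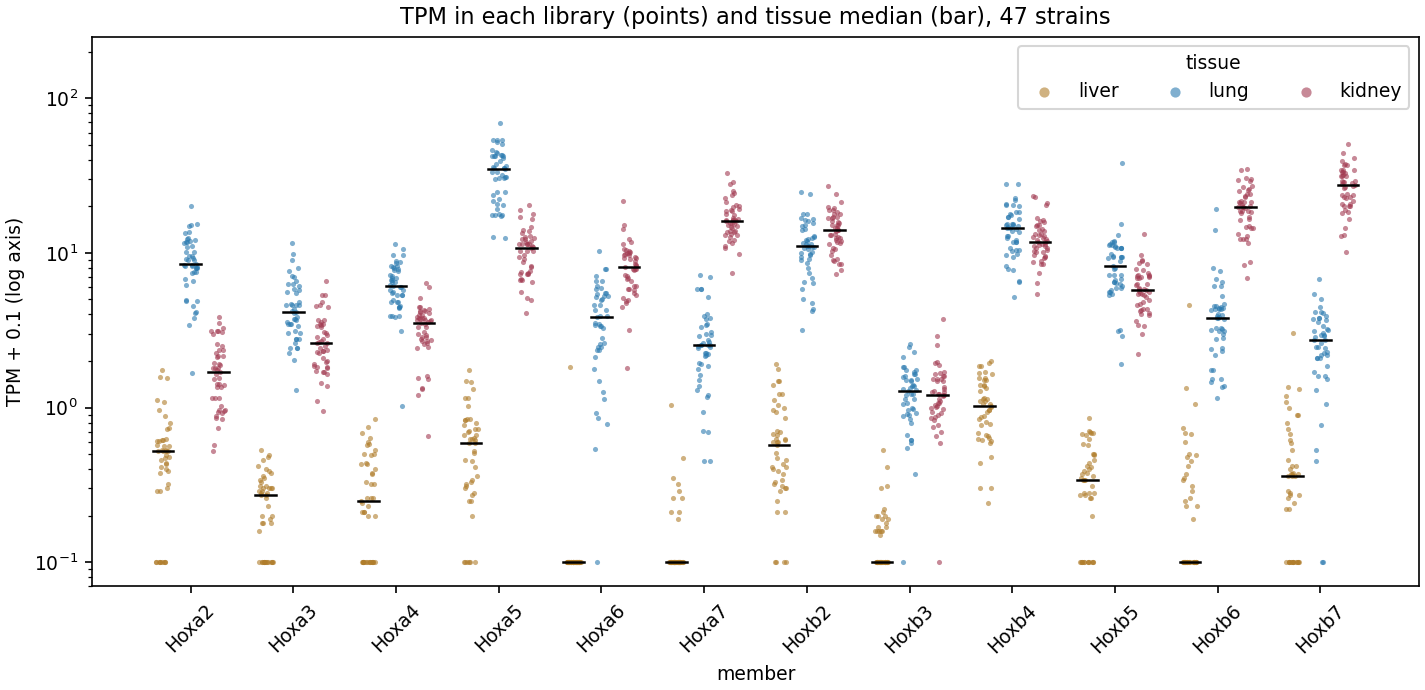
Level of the 12 Hox genes expressed in both lung and kidney, in each of 47 livers, lungs and kidneys. The vertical axis is TPM + 0.1 on a log scale, points are libraries and bars are medians. Lung and kidney points overlap for Hoxb2 to Hoxb5, lung is higher for Hoxa2 and Hoxa5, and kidney is higher for Hoxa6, Hoxa7, Hoxb6 and Hoxb7.

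Hoxb8 and Hoxb9 were kidney genes. Hoxb8 had a median of 4.85 TPM in kidney (1.92 to 10.4) and 0.16 TPM in lung (0 to 0.83), and Hoxb9 had 10.03 TPM in kidney (3.98 to 23.4) and 0 TPM in lung (0 to 0.42). No lung reached the lowest kidney for either gene. The differences were -4.99 ± 0.19 and -7.19 ± 0.15, the latter the furthest from 0 of the 24 tested members. For genes with so few lung reads the fitted size depends on the small count that the method adds.

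The kidney also expressed Hoxc4 to Hoxc10, genes of the trunk that pattern ribs, vertebrae and spinal motor neurons. Median levels were 2.99 TPM for Hoxc4, 4.92 for Hoxc5, 11.2 for Hoxc6, 4.16 for Hoxc8, 4.61 for Hoxc9 and 10.6 for Hoxc10. Hoxc10 ran from 5.68 to 18.9 TPM and Hoxc6 from 4.52 to 19.4 TPM, and their highest lungs were at 0.59 and 2.54 TPM. By scaled CPM, kidney was above lung in all 47 mice for each of the 6 (46 for Hoxc4 by TPM), with differences from -2.74 ± 0.20 for Hoxc4 to -6.99 ± 0.12 for Hoxc10.

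The few Hoxc reads of the lung lay mostly in the libraries that stood apart. The 21 lungs with squamous genes had Hoxc sums of 1.35 to 8.47 TPM (median 2.67) and 559 Hoxc counts, and the 26 others 0 to 1.93 TPM (median 0.79) and 118 counts. All of the first set lay above the median of the second. Without the libraries that stood apart, the lung against kidney difference moved from -3.99 to -5.15 for Hoxc5, from -5.82 to -6.59 for Hoxc6 and from -2.74 to -3.51 for Hoxc4, and no call changed. The lung of CC035 had both the highest squamous sum and the highest Hoxc sum, and the part of the squamous genes in the Hoxc reads was not tested.

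**Figure D3:**
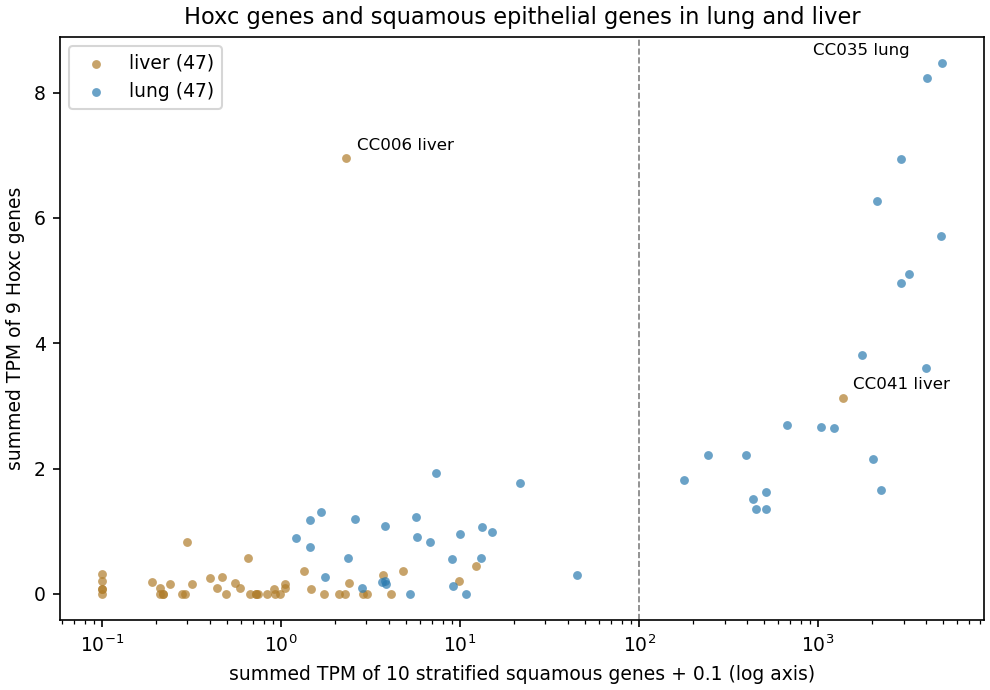
Summed TPM of the 9 Hoxc genes (vertical) against the summed TPM of 10 stratified squamous genes + 0.1 (horizontal, log axis) in 47 livers and 47 lungs. The dashed line is 100 TPM. The 21 lungs to its right have Hoxc sums of 1.35 to 8.47 TPM, and the livers of CC006 and CC041 lie above the other livers.

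In the Hoxd cluster, the kidney expressed Hoxd3, Hoxd4, Hoxd8, Hoxd9 and Hoxd10. Hoxd4 was at 7.21 to 23.6 TPM in kidney (median 14.5), 0 to 1.67 TPM in lung (median 0.64) and 0 to 0.45 TPM in liver (median 0). Hoxd10, which patterns the hindlimb and its motor neurons, was at 5.51 to 27 TPM in kidney (median 12.7) and at most 1.17 TPM in lung. Hoxd9 and Hoxd3 had kidney medians of 12.2 and 5.04 TPM. Every kidney was above every lung for these 4 genes, with differences of -5.18 ± 0.11 for Hoxd4, -6.72 ± 0.12 for Hoxd10, -5.54 ± 0.14 for Hoxd9 and -5.63 ± 0.15 for Hoxd3. The Hoxa and Hoxb genes of groups 3 and 4 had differences between -0.58 and 0.43, so that Hoxd3 and Hoxd4 lay apart from their paralogs.

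Hoxa9, Hoxa10, Hoxa11 and Hoxd8 were too low for the filter of the test and were read from their counts. Hoxa10, which is needed in the uterus, was at 0.81 to 4.97 TPM in kidney (median 2.35), and Hoxa11, which acts with the other group 11 genes when the kidney forms, at 0.30 to 3.96 TPM (median 1.37). Hoxa9, a regulator of blood progenitors, had a median of 0.86 TPM and Hoxd8 one of 1.21 TPM in kidney. In lung these 4 genes never passed 3 counts. Hoxa9 and Hoxd8 had no read in any liver, and their pooled kidney values of 0.992 and 0.994 CPM (counts relative to the library total) were each at least 169-fold higher than the 3 counts that a sum of 0 over the livers allows.

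The remaining 11 members were at or under 3 counts in most libraries of every tissue. The group 11 genes Hoxc11 and Hoxd11 had reads in 25 and 28 kidneys, and Hoxd11 in no lung or liver, so that its 59 kidney counts were at least 20.7-fold higher than lung and at least 24.5-fold higher than liver. Hoxc11 had reads in 1 lung and no liver. Hoxb1, a hindbrain gene, had reads in 12 lungs, 4 kidneys and 0 livers. Hoxd1 had reads in 2 lungs and 11 kidneys. The last genes of each cluster were close to undetected, with reads of Hoxa13 in 2 lungs and 1 kidney, Hoxb13 in 8 lungs, Hoxc12 in 1 lung and 1 kidney, Hoxc13 in 4 lungs, Hoxd12 in 3 lungs and 4 kidneys, and Hoxd13 in 7 lungs and 2 kidneys. None of these 6 had a read in liver. Each of the 39 members had a read in at least 1 library.

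The liver held traces of the lung's set of genes. Hoxb4 was the single member with more than 3 counts in most livers (40 of 47). Hoxa5, Hoxb2, Hoxa2, Hoxb7 and Hoxb5 followed at medians of 0.49, 0.47, 0.42, 0.26 and 0.24 TPM, and all other medians were at most 0.17 TPM. At these depths, members at 0 were not detectable rather than absent. The liver of CC006 was an exception, with 95 counts (12.8 TPM) of Hoxb9 against at most 1 in the other 46 livers. It also had 15 counts each of Hoxc6 and Hoxc8, 16 of Hoxb6, 11 of Hoxb8 and 10 of Hoxb7, each above every other liver, together with the adrenal gland genes given above. The liver of CC041, with squamous genes, had 6 counts each of Hoxc6 and Hoxc8, the highest outside CC006.

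Of the 39 members, 24 passed the filter on low values and 15 did not. The 12 that passed without being expressed in lung did so through kidney and had to differ from the other organs, so the counts below describe the members and carry no further weight. A difference was called at a Benjamini-Hochberg q of at most 0.1 over all 12127 genes tested by limma-voom and at least 2-fold. Between lung and kidney, 2 members were higher in lung and 16 in kidney, where 25.5% and 20.6% of all genes were called in these directions. The median difference of the members was -3.61, against 0.04 over all genes. Between liver and kidney, 23 of 24 were higher in kidney (20.8% of all genes) and 0 in liver (15.6% of all genes), with a median of -4.86 against -0.003. No member was higher in liver at an unadjusted p under 0.05, and edgeR and DESeq2 also called 0.

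Between liver and lung, 14 members were higher in lung and 2 in liver, where 31.0% and 23.9% of all genes were called. The median was -1.33 against -0.06 over all genes. All 13 members with more than 3 counts in most libraries of either tissue were among the 14, from -1.23 ± 0.12 for Hoxd4 to the Hoxa5 value given above. The 2 called higher in liver, Hoxb9 and Hoxc10, had at most 3 counts in every lung, and in liver Hoxc10 had at most 2 and Hoxb9 at most 1 outside CC006, so no fold is given. Size factors, total counts and DESeq2 called 0 members higher in liver, with 15, 19 and 18 higher in lung. Without the libraries that stood apart, 1 was higher in liver (Hoxc10) and 12 in lung, with Hoxc4 and Hoxd4 no longer called (Hoxd4 at -0.98).

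The lung against kidney difference went down with the number of the gene within Hoxa, Hoxb and Hoxc. As a description over the tested members of each cluster, the correlation of the log2 difference with paralog number was -0.861 in Hoxa (6 genes), -0.894 in Hoxb (8 genes) and -0.866 in Hoxc (6 genes). All points share the same libraries, and neighbours can share reads. The tested Hoxc and Hoxd genes, Hoxb8 and Hoxb9 had lung medians under 1 TPM. Their differences therefore follow mostly the kidney level and the small count that the method adds. Over the alternatives Hoxc10 ran from -7.87 to -3.48 and Hoxb9 from -8.44 to -3.37. The Hoxc correlation thus does not measure a gradient within lung, and the Hoxb correlation rests in part on Hoxb8 and Hoxb9. The fall was not even. In Hoxa and Hoxb its largest single step lay between groups 5 and 6. Hoxa5 was at 1.14 and Hoxa6 at -1.70, and Hoxb5 was at -0.02 and Hoxb6 at -2.94. Beyond group 6 the values fell further, to -3.30 for Hoxa7 and -7.19 for Hoxb9. In Hoxd the 4 tested genes lay between -5.18 and -6.72 whatever their number.

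**Figure D4:**
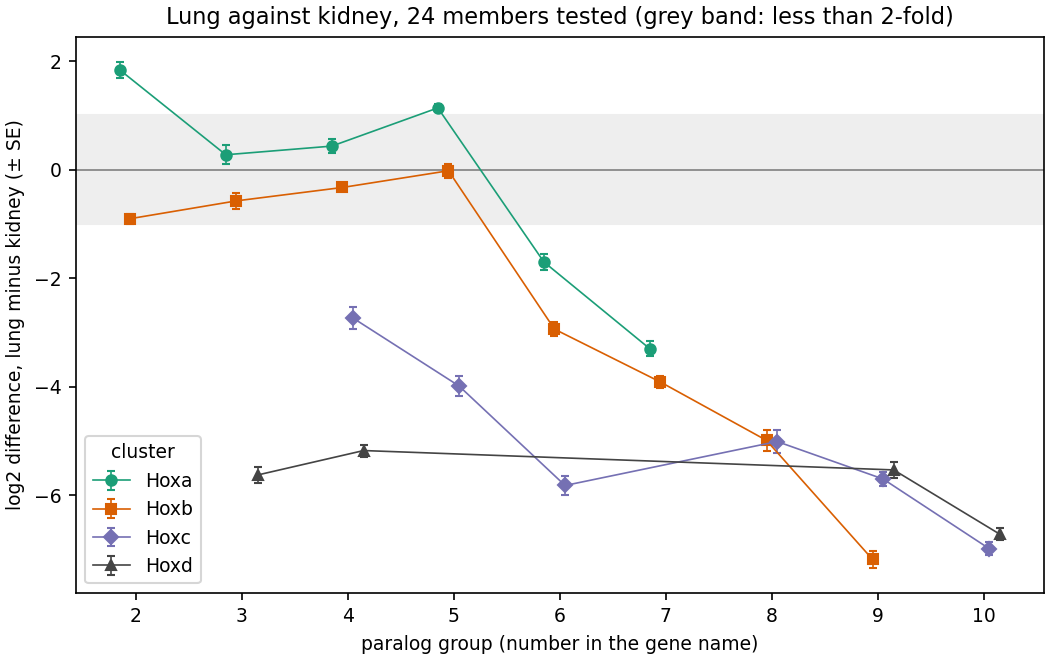
Log2 difference between lung and kidney (lung minus kidney, with SE, limma-voom) against paralog group for the 24 tested Hox genes, by cluster. The grey band is less than 2-fold. Hoxa and Hoxb genes of groups 2 to 5 lie in or near the band or above it, and from group 6 on the values fall to -7.19, while Hoxc and Hoxd genes lie below the band at every number.

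Ratios between members of 1 library do not depend on how libraries are scaled. Hoxb5 was above Hoxb6 in all 47 lungs, with a median log2 ratio of 1.01 (0.047 to 2.95), and below it in all 47 kidneys, with a median of -1.63 (-2.95 to -0.98). Hoxb4 and Hoxb7 changed places in the same way, with medians of 2.30 and -1.12, as did Hoxb2 and Hoxb7, at 1.93 and -0.94. In Hoxa, Hoxa5 was above Hoxa7 in 47 lungs and 6 kidneys. The order of Hoxb5 and Hoxb6 thus differed between every lung and every kidney.

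Of 15 noncoding genes of the clusters in the files, Mira and Hoxb5os were high enough to test, and both were higher in kidney than in lung. Mira, which lies by Hoxa6 and Hoxa7, had medians of 0 TPM in liver (highest 2.38), 7.19 in lung (1.54 to 16.9) and 43.0 in kidney (13.9 to 71.2), a lung against kidney difference of -3.07 ± 0.10. Hoxb5os had medians of 0, 2.37 and 16.7 TPM and a difference of -3.28 ± 0.17, beside -0.02 for Hoxb5 itself. Hotairm1, at the low end of Hoxa, had medians of 14.2 TPM in lung and 10.2 TPM in kidney, and Hoxaas2 2.32 and 0.73 TPM. Haglr, Hoxa11os and Hoxd3os1 had reads in 46 kidneys each and kidney medians of 0.92, 1 and 3.12 TPM, with 10, 2 and 15 lungs holding a read. Hotair, of the high end of Hoxc, had reads in 11 kidneys, 3 lungs and 0 livers.

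At the miRNA genes printed above, Mir196b had reads in 35 kidneys, 1 lung and 0 livers, and Mir196a-1 in 25 kidneys, 0 lungs and 1 liver. Mir10a, in contrast, had reads in 14 lungs, 5 kidneys and 1 liver, at 1 or 2 counts each. Where an exon is shared, as between Mir196b and Hoxa9, the reads can belong to either gene. Mir10b and Mir196a-2 had no read.

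Genes that work with or on Hox genes were read from lists of known members. Of 9 Hox cofactors, homeodomain proteins that bind DNA beside Hox proteins, 3 passed the filter. Lung exceeded liver for 2 of them and kidney for 1, and kidney exceeded liver for 1. Meis1 (medians of 0.09 TPM in liver, 2.88 in lung and 0.20 in kidney) was higher in lung than kidney by 2.83 ± 0.17 and lower in liver than lung by -2.85 ± 0.17. Meis1 was not called between liver and kidney.

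Polycomb genes, whose proteins keep Hox genes silent, showed no common direction. Of 16 tested, 0 were called between lung and kidney by limma-voom or edgeR and 2 by DESeq2, and at an unadjusted p under 0.05 limma-voom gave 5 higher in lung and 8 in kidney. Between liver and lung 2 were called each way by limma-voom, whereas DESeq2 called 1 higher in liver and 3 in lung. In the limma-voom fit Cbx6 at -3.50 ± 0.06 and Cbx7 at -1.96 ± 0.06 were higher in lung, and Cbx2 at 1.67 ± 0.06 was higher in liver. Between liver and kidney 4 were higher in kidney, such as Cbx6 and Jarid2, and Cbx2 was higher in liver. In the fit, the members of 1 complex family, Cbx2, Cbx6 and Cbx7, thus differed in opposite directions between liver and lung. By TPM, Cbx2 was nearly level, with medians of 6.03 in liver, 5.02 in lung and 5.2 in kidney. Cbx6 and Cbx7 were lower in liver than in lung by TPM too, with medians of 1.53 against 56.26 and 4.87 against 55.1. The size of the Cbx2 difference thus depended on the scaling.

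Of 4 Trithorax and H3K27 demethylase genes tested, which act against Polycomb, Kmt2a and Kdm6b were higher in lung than in liver (-1.59 ± 0.05 and -1.10 ± 0.14 for liver against lung) and than in kidney (1.08 ± 0.05 and 1.09 ± 0.14). None of the 4 was called between liver and kidney by limma-voom, edgeR or DESeq2, with 2 higher in liver and 1 in kidney at an unadjusted p under 0.05 by limma-voom.

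Retinoic acid induces Hox genes of low number in the embryo. Of 7 tested genes of its synthesis, breakdown and receptors, 5 were higher in lung and 1 in kidney (25.5% and 20.6% of all genes). Between liver and lung, 1 was higher in liver and 2 in lung (23.9% and 31.0% of all genes), and DESeq2 called 0 and 3. The liver call was Aldh1a1, at 1.19 ± 0.23, although its median was 1325 TPM in liver and 1588 TPM in lung. Between liver and kidney, 3 were called each way (15.6% and 20.8% of all genes), and DESeq2 called 3 in liver and 4 in kidney. Aldh1a2, which makes retinoic acid in the embryo, had medians of 0.17, 26.0 and 3.09 TPM in liver, lung and kidney, and Rarg, a receptor, 0.25, 6.43 and 1.02 TPM. Their lung against kidney differences were 2.04 ± 0.15 and 2.07 ± 0.17, and that of Aldh1a1 was 3.24 ± 0.23. None of the 3 Cdx genes, which induce trunk Hox genes in the embryo, passed the filter.

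Genes that flank the clusters were called in both directions between lung and kidney. Of 9 tested, 2 were higher in lung and 3 in kidney, where 25.5% and 20.6% of all genes were called. Hibadh, a valine-degradation gene beside Hoxa, was at a median of 668.6 TPM in kidney against 93.8 in lung (-3.44 ± 0.04). Mtx2, a mitochondrial gene beside Hoxd, was also higher in kidney (-1.59 ± 0.04), and Ttll6, beside Hoxb, was at 8.71 TPM in lung and 0 in the others. None was called between liver and kidney by limma-voom, edgeR or DESeq2 (4 higher in liver and 2 in kidney at an unadjusted p under 0.05 by limma-voom), the contrast in which 23 Hox genes were.

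The spread between strains differed from member to member. The biological coefficient of variation (BCV), the spread between mice beyond counting error relative to the level, was 0.167 for Hoxd4, 0.170 for Hoxb7 and 0.181 for Hoxc6 in kidney, the lowest of 28 members, and 0.412 for Hoxb8, the highest. The median of the 28 was 0.255, against 0.296 over genes at the same levels and 0.229 over all genes. In lung it ran from 0.200 for Hoxb3 to 0.535 for Hoxa7, with a median of 0.326 over 12 members against 0.297 and 0.236. Hoxb4 in liver had 0.229. Members lay below the trend of spread against level in 26 of 28 cases in kidney and 10 of 12 in lung. The share of all genes below this trend was not taken, so these counts do not set the members apart. In kidney the lowest trend value at a member, 0.305 for Hoxd4, was itself above the median of 0.296 over genes at the same levels.

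By TPM, a few mice held most extremes. Of the 12 genes expressed in lung, 7 were highest in the mouse of CC037, whose lung had 38.2 TPM of Hoxb5 and 19.3 TPM of Hoxb6 and the highest Hox sum, 225.5 TPM. That library had 3375073 counts, among the shallowest. The lung of CC015 was lowest for 3 genes and in its sum, 42.6 TPM. In kidney, 10 of 27 expressed genes were highest in CC032, whose sum of 363.5 TPM was the highest. That kidney also had the highest summed levels of collecting duct genes, 570.7 TPM, and of thick ascending limb and distal tubule genes, 192.1 TPM. The kidneys of CC027 and CC015 were lowest for 6 genes each. With 1 mouse per strain, it cannot be told whether these values belong to the strain, the mouse or the piece of tissue. The ranks and sums were taken on TPM alone, and were not repeated on scaled CPM. Genes varied together more on TPM: 46 of 55 relations of members with marker lists passed in lung, against 2 on scaled CPM, and 152 of 216 against 0 in kidney. The part of library scaling in these extremes was not tested.

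No relation was detected between the level of a Hox gene in the lung of a mouse and its level in the kidney. For the 11 members with more than 3 counts in at least 80% of both sets of libraries, r over the 47 strains ran from -0.136 (Hoxa3) to 0.211 (Hoxa4), with a median of 0.02. By Pearson or Spearman correlation 0 of 11 passed q of 0.1, and 0 had an unadjusted p under 0.05 (100000 permutations, two-sided). Over all 9882 genes that met the same limit the median r was 0.152 and 19.2% passed. Hoxb4, the single member that could be read in liver, had r = 0.083 between liver and lung (permutation p = 0.577, rho = 0.087). Between liver and kidney it had r = 0.282 (permutation p = 0.0554, rho = 0.248 with p = 0.0936), which passed q of 0.1 as the only relation of its family and fell to 0.194, no longer passing, without the 2 strains farthest from the median.

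Within kidney, many neighbours along a cluster varied together. Of 22 pairs of neighbours, 14 passed q of 0.1, all with r above 0, and 13 by Spearman correlation. Hoxc4 with Hoxc5 had r = 0.621 and rho = 0.566 (permutation p = 1e-05, the smallest these permutations can give, q = 0.00022), and 0.506 without 2 strains. Hoxb8 with Hoxb9 had r = 0.554 (q = 0.00077), Hoxa3 with Hoxa4 0.488 (q = 0.00337) and Hoxc8 with Hoxc9 0.456 (q = 0.00583). Others did not pass, such as Hoxa4 with Hoxa5 at 0.009, Hoxb7 with Hoxb8 at 0.025 and Hoxb2 with Hoxb3 at -0.054. As a description, the median r was 0.329 over neighbours, 0.165 over 63 other pairs of a cluster and 0.142 over 266 pairs of different clusters. All pairs come from the same libraries.

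In lung, 4 of 8 pairs of neighbours passed, and 5 by Spearman correlation. Hoxb5 with Hoxb6 had r = 0.55 (q = 0.00112), which fell to 0.276 without the 2 strains farthest from the median. Hoxb4 with Hoxb5 had 0.517 (q = 0.00112) and kept 0.434, Hoxa3 with Hoxa4 had 0.426 (q = 0.00784), and Hoxa2 with Hoxa3 had 0.344 (q = 0.0355). Without the libraries that stood apart (26 lungs), 3 of the 8 passed, and Hoxa2 with Hoxa3 fell to 0.206 (q = 0.416). The median over neighbours was 0.26, over other pairs of a cluster 0.28 and over pairs of different clusters 0.219.

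**Figure D5:**
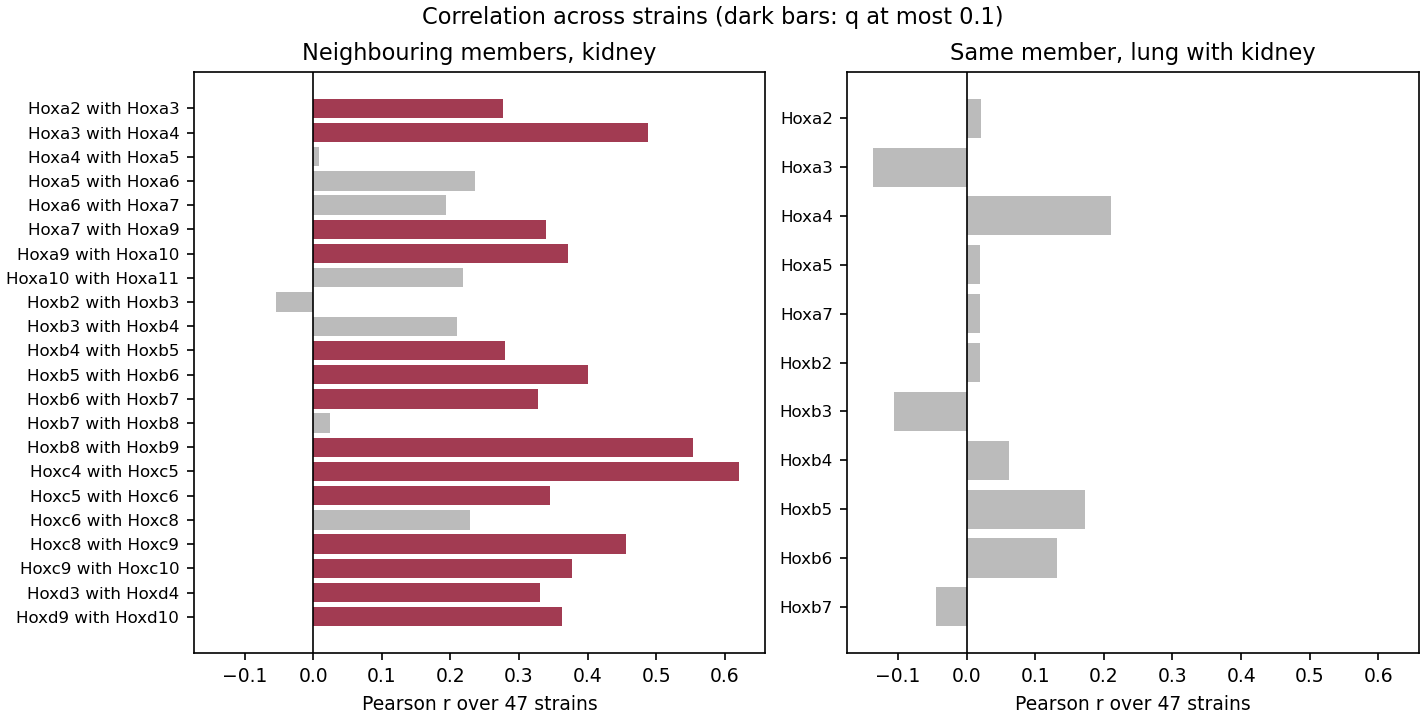
Pearson r over 47 strains, for 22 pairs of neighbouring Hox genes in kidney (left) and for 11 Hox genes between lung and kidney of the same mouse (right). Dark bars have q of at most 0.1. In kidney 14 of the 22 pairs are dark and 21 lie above 0, and on the right no bar is dark.

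Few relations between members and cell type markers passed the test. In lung, 2 of 55 relations between 11 members and 5 marker lists passed, Hoxa5 and Hoxa7 with smooth muscle genes at r = -0.479 and -0.474 (q = 0.0253 each), whereas rho was -0.296 and -0.406 and 0 of 55 passed by Spearman correlation. Without the libraries that stood apart (26 lungs), 1 passed, Hoxa5 with smooth muscle at r = -0.723. In kidney, 0 of 216 relations passed by Pearson or Spearman correlation, with 26 at an unadjusted p under 0.05 by each. The largest in size was that of Hoxb5 with proximal tubule genes at -0.472 (q = 0.134), and 23 of 27 members had r below 0 with that list. The share of all genes with r below 0 was not taken, so this count does not set the members apart. With collecting duct genes, Hoxd3 had r = 0.414 and Hoxd10 0.378 (q = 0.134 and 0.155), and Hoxb7 0.168.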

How the data were processed

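Livers, lungs and kidneys of 47 strains gave 1 ribosome-depleted total RNA library each. The authors aligned reads with STAR 2.5.3a to strain pseudo-genomes (mm9) with RefSeq genes and quantified them with RSEM. Each deposited file holds the expected count, TPM and FPKM of 24423 genes, and FPKM was not used. Expected counts, of which 25 over all files were not whole, were rounded. Levels are the deposited TPM.

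The 12127 genes that exceeded 1 CPM in 30% of libraries or more were fitted in limma 3.58.1 (voom) with TMM factors from edgeR 4.0.16 and terms for tissue and strain. The groups were the tissues of the labels, and the strain term pairs the 3 libraries of a mouse: deviations from tissue means correlated within mice (medians 0.167, 0.212 and 0.173 for liver with lung, lung with kidney and liver with kidney) and not between mice (at most -0.005). No batch is among the labels. On simulated data for liver against lung (12127 genes), 150 of 150 genes changed by 4-fold or more were recovered, with 0 false calls. Genes changed by 2-fold, the calling limit, are not in this count. All unchanged genes were drawn with the same mean in every tissue and no strain effect. The simulation thus does not cover tissues in which many genes differ, as in the real data.

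Members with over 3 counts in more than 50% of the libraries of a tissue (28) have values, and the others are given by numbers of libraries with a read, except 1 member that, like 1 cofactor, is not reported here. Other lists are given by counts and their 3 largest calls per comparison or fewer. Correlations used log2 CPM with TMM factors (prior count 1), and 100000 permutations of the strains for the members or 10000 for all genes. BCV is from edgeR within each tissue. Folds against tissues at 0 use 3 counts over the group. The members and lists were chosen with earlier results of these data known. Alternatives were edgeR, DESeq2 1.42.0, other scalings, filters, thresholds and sample sets. Depth limits members near 0, and p-values measure the spread between 1 mouse per strain.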

Additional observations from a re-analysis of the deposited data

How the results depend on the processing

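Over 61 tissue differences of named members and 13 alternatives each, 769 of the values kept their direction and side of the threshold, 12 gained a call, 2 lost one and 10 turned in sign, with 0 called values among the last. The 10 were Hoxb5 for lung against kidney (-0.02), which was 0.006 with edgeR, 0.145 with DESeq2, 0.116 with size factors, 0.409 with total counts, 0.43 with log2(TPM + 1), 0.481 with log2(TPM + 0.1) and 0.016 with the pair of tissues fitted alone, and Hoxb4 (-0.33), which was 0.088, 0.172 and 0.182 with total counts and both TPM scales. Total counts moved the median of all genes by themselves, to -1.44 for liver against lung, 0.464 for lung against kidney and -0.954 for liver against kidney.

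Liver against lung gave 16 called members, 2 higher in liver, and 26 with no filter on low values, 12 of them higher in liver. By direction, edgeR called 1 in liver and 18 in lung, and DESeq2 0 and 18. The strain block that pairs the tissues of a mouse changed little: without it the counts were 15 for liver against lung, 18 for lung against kidney and 24 for liver against kidney, against 16, 18 and 23. The added call was Hoxa2, at -1.004, and the lost one Hoxb9. Expressed members in liver were 1 (Hoxb4), not 0, at a limit of 0.5 TPM or of more than 3 counts. Neighbours in lung passed in 8 of 8 pairs with log2(TPM + 1), against 4. Marker relations depended most on the scale: in lung 46 passed with log2(TPM + 1), 6 without shallow libraries, 6 as partial correlations given total counts, 1 without the libraries that stood apart and 0 by Spearman correlation, against 2, and in kidney 152 passed with log2(TPM + 1), 1 without shallow libraries and 5 as partial correlations, against 0. The cause of these shifts was not tested. The alternative without the libraries that stood apart was chosen after seeing the data.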
